A study of Mus musculus with 6 samples.

Results

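The expression programme of untreated mouse kidney cortex was described from 3 arrays, each hybridised with total RNA from the cortex of 1 control mouse. A gene was included when a probe with a single gene symbol in the platform annotation had a detection p under 0.05 on all 3 control arrays. This p compares a probe's signal with that of negative-control beads on the same array. The brightest such probe stood for the gene. The rule kept 8618 genes of the 19057 symbols with a named probe, or 45.2%. Cyrib, Mical1 and Ago3 were the last ones in, with a highest detection p of 0.0491, 0.0491 and 0.0481, and Pvr, Frat2 and Hoxd11 were the first ones out, at 0.0502, 0.0502 and 0.0513.

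The study gave the angiotensin-converting enzyme inhibitor captopril to 3 male C57BL6 mice for 7 days, starting at an age of 11 weeks. The dose was 10 mg/kg/day, taken with the drinking water. The 3 control mice were male C57BL6 mice, and the labels give an age of 12 weeks for both groups. What the control mice drank is not described beyond the word control. The tissue was surgically excised cortex, a mixture of tubule segments, glomeruli, vessels and interstitium, so a bulk value cannot tell fewer cells of a type apart from less RNA per cell.

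The cortex holds glomeruli, where blood is filtered, and the tubules that recover most of the filtrate. Proximal tubules make up most of its mass. They reabsorb phosphate, glucose, amino acids and filtered protein, secrete organic anions and cations, and draw their energy largely from mitochondrial oxidation of fatty acids and other fuels. In male mice, androgens raise a set of proximal tubule genes, of which the kidney androgen-regulated protein gene Kap is the best-known example. The thick ascending limb and distal segments that pass through the cortex recover salt, calcium and magnesium.

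The levels below are background-corrected, quantile-normalised signals on the log2 scale, given in the order control 1, control 2, control 3. A probe's brightness depends on its own sequence as well as on the amount of its transcript, so a rank orders probe signals and not numbers of molecules. Where a gene had a second detected probe, that probe's level correlated with the brightest probe's with a Spearman coefficient of 0.70 across 2747 genes. Genes share arrays and are not independent replicates. No test was made, since the arrays form 1 group, and the spread is given as the SD or as the range between the highest and the lowest array.

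All 5 genes given as markers of cortex were among the 200 brightest. Slc34a1, the sodium-phosphate cotransporter of the proximal brush border, ranked 8 with 14.88, 14.77 and 14.79. Umod, the uromodulin gene of the thick ascending limb, ranked 59 with 13.93, 13.86 and 13.91. A second Umod probe averaged 13.88. Kap ranked 72 with 13.83, 13.68 and 13.82, and Aqp1, the water channel of the proximal tubule and thin descending limb, ranked 142 with 13.18, 13.12 and 13.21. For these 4 genes the 3 arrays lay within 0.15 of each other. Lrp2, which encodes the endocytic receptor megalin, ranked 200 with 12.60, 12.97 and 13.05, and control 1 lay below the other 2 arrays. Each marker was thus detected at a high level on every control array.

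Promoter letters were set beside the rank, for the TATA box, a core promoter element about which the transcription machinery assembles. Windows of 300 bases, 250 before and 50 after the start site, came from RefSeq on GRCm38.p6, and 7013 of the 8618 genes matched one by symbol. The letters TATAAA were searched on the gene's own strand only, 40 to 16 bases before the start site. They were found in 23 of 720 windows, or 3.19%, in the brightest decile of the genes. In the other deciles the share lay between 0.283% and 1.88%. It was 1.31% over all detected genes, 3.89% over genes with a named probe that were not detected on all 3 arrays, and 2.22% of 27025 windows in the table. The share was thus higher in the brightest decile than in the other deciles, and lower than in the genes not detected on all 3 arrays, with no test of these differences. The 4 windows with the letters among the 100 brightest genes belonged to Miox, Ppia, Cyp2e1 and Kap. None of the 67 windows of oxidative phosphorylation genes and none of the 45 windows of ribosomal protein genes had them. The letters CCAAT, on either strand and anywhere in the window, were in 38.1% of detected genes and in 37.9% of the table. The median GC content of the window was 55.3% for the 100 brightest genes, 61.0% for all detected genes and 52.7% for the table. Shown are 2 bright tubule genes with the letters, Kap (chr6:133853618-133853917, minus strand) and Miox (chr15:89334223-89334522, plus strand), the globin gene Hbb-bt, whose signal varied between arrays (chr7:103813874-103814173, minus strand), and the elongation factor gene Eef1a1 without the letters (chr9:78481675-78481974, minus strand, 66.7% GC). Capitals mark TATAAA, which starts 31 bases before the start site in Kap, 40 in Miox and 28 in Hbb-bt.
Kap: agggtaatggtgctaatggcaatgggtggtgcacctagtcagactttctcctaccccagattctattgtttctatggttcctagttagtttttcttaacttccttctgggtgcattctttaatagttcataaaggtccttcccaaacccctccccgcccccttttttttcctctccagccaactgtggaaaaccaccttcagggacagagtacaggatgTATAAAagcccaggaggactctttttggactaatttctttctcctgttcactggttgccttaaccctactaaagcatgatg
Miox: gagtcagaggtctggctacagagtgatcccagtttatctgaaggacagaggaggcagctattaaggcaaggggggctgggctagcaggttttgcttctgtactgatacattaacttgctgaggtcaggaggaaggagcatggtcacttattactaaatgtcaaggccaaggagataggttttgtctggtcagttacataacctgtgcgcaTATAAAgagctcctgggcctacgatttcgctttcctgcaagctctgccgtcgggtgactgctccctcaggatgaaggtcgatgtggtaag
Hbb-bt: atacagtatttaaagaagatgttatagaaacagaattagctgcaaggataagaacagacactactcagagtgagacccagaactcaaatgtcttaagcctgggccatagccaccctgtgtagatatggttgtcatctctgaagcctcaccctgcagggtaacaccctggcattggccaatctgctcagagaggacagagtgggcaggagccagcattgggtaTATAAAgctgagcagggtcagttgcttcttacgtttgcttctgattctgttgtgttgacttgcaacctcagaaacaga
Eef1a1: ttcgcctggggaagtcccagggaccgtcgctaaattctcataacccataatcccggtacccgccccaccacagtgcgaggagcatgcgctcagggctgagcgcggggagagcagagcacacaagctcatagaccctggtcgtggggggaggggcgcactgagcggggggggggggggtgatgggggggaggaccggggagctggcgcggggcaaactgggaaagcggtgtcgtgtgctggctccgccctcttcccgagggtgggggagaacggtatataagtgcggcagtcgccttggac
A match is a run of letters and no measured binding, and the missing match in Eef1a1 says only that these 6 letters were not in the interval searched.

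The 25 brightest genes had mean levels between 14.39 and 15.30. Gpx1, the intracellular glutathione peroxidase, stood first with 15.24, 15.33 and 15.33. Atp5b, the catalytic beta subunit of the mitochondrial ATP synthase, followed with 15.33, 15.15 and 15.24. Napsa, an aspartic protease known from kidney and lung, had 15.15, 15.10 and 15.09. Gpx1 and Atp5b overlapped in their array values, so their order was not larger than the spread between mice, while Napsa lay below Gpx1 on every array. Gpx3, the secreted glutathione peroxidase that plasma receives mainly from the proximal tubule, had 15.06 on each array. Inmt, an indolethylamine N-methyltransferase, had 15.09, 14.99 and 14.92, and the ferritin heavy chain gene Fth1 had 15.10, 14.91 and 14.88. The highest scanner signals before normalisation were 42305, 37808 and 43616, and the files carry no flag for saturated beads.

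Among the other genes of the top 25, Atp5g3, Cox6a1 and the mitochondrial cytochrome b gene CYTB belong to oxidative phosphorylation. Rplp1, Rpl41, Rps2 and Rps29 encode ribosomal proteins, and Eef1a1 carries aminoacyl-tRNA to the ribosome. Acadm starts the oxidation of medium-chain fatty acids, Hibadh acts in valine breakdown, and Dbi binds acyl-CoA. Akr1a1 reduces aldehydes, and Nudt19 hydrolyses coenzyme A in peroxisomes. Ugt3a2 and Cyp4b1 are enzymes of conjugation and oxidation of small molecules, Atp1b1 is the beta subunit of the sodium-potassium pump, and Itm2b and Tmbim6 encode membrane proteins. Gene 25, Rps29, averaged 14.39 and gene 26 averaged 14.37, a step smaller than the range of 0.08 that Rps29 itself showed. The arrays shared 22 to 24 of their own 25 brightest genes, and 91 to 93 of their 100 brightest, in each pair.

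**Figure D1:**
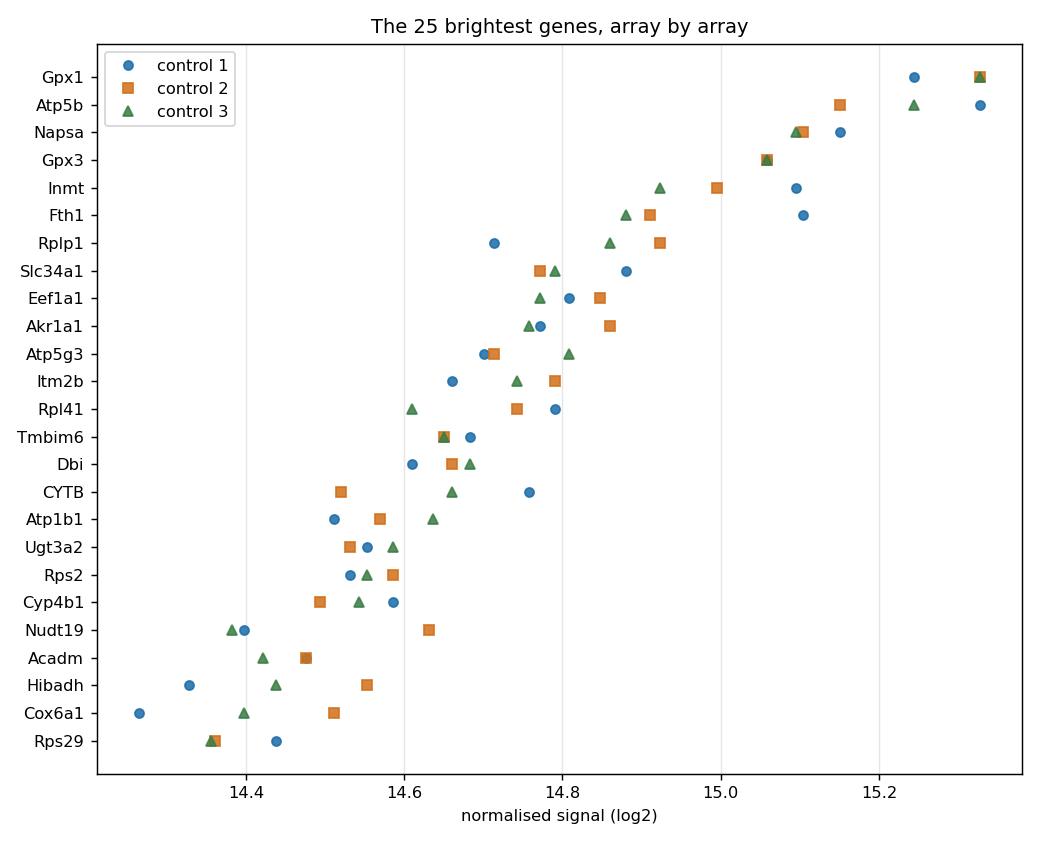
Normalised log2 signal (x axis) of the 25 genes with the highest mean, from Gpx1 at the top to Rps29 at the bottom, with 1 symbol per control array. Gpx1 and Atp5b overlap in their array values, and Gpx3 shows 1 visible point because its 3 values of 15.06 coincide.

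Signal was unevenly spread over the genes. The 100 brightest carried 22.1% ± 0.12 (SD, n = 3) of the summed linear signal of the 8618 genes, and the 20 brightest carried 6.95%. The median gene had a level of 8.03. These are shares of probe signal and not of RNA molecules. Quantile normalisation gives the 3 arrays nearly the same set of values, so the SD of this share does not measure the spread between mice.

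The proximal tubule list was represented almost in full. Of its 26 genes with a named probe, 25 were detected on all 3 arrays, 4 of them among the 100 brightest, with a median level of 10.71 against 8.03 over all detected genes. Besides Slc34a1, the brightest members were Miox, the first enzyme of myo-inositol breakdown (14.29, 14.40 and 14.35), the cation and proton exchanger Slc47a1 (14.24, 14.28 and 14.05), and the organic anion transporter Slc22a6 (14.00, 14.27 and 14.03). Dab2, an adaptor that works with megalin in endocytosis, had 12.64, 12.64 and 12.65. Of the 25, 23 were among the brighter 4309 of the 8618 detected genes. The others were Cubn, with 6.43, 6.32 and 6.54, and Slc22a8, with 6.72, 6.87 and 6.81. The gene that was not detected on all 3 arrays was Gatm, which makes the creatine precursor guanidinoacetate. Its only named probe gave scanner signals of 144, 101 and 137, close to the array medians of 142, 111 and 129, and was detected on none of the arrays. Of the list of the late, straight proximal segment, 9 of 10 genes were detected. Among them were the fatty acid transporter Slc27a2 with 13.88, 13.83 and 13.92, and Slc22a7, an organic anion transporter, with 9.38, 9.43 and 9.84.

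Genes known to depend on androgens in mouse kidney were bright in these male mice. Of 12 with a probe, 10 were detected, or 83.3%, against 45.2% of all named genes. All 10 were among the brighter 4309 genes, with a median of 12.72, and 4 were among the 100 brightest. Next to Kap these were Cyp2e1, a cytochrome P450 (14.02, 14.18 and 14.15), Acsm3, a medium-chain acyl-CoA synthetase (13.81, 13.50 and 13.74), and Odc1, the first enzyme of polyamine synthesis (13.50, 13.53 and 13.52). Odc1 varied by 0.02 between arrays. Slco1a1, an organic anion transporter, was detected on no array, and Slc7a13, an amino acid transporter, on 2. Of 3 genes with a probe that were listed as female-biased in kidney, 2 were detected. These were Slc22a7 with 9.38, 9.43 and 9.84, and Cyp4a14 with 6.89, 8.16 and 6.98. Xist, the RNA of the inactive X chromosome, was detected on no array by any of its 4 probes, and the Y-linked translation factor gene Eif2s3y was detected with 6.55, 6.04 and 6.26. The Y-linked demethylase genes Uty and Kdm5d did not pass the rule, Uty with no array by any of 4 probes and Kdm5d with 1 array by one probe and none by the other.

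Most listed genes of the segments beyond the proximal tubule were detected. For the thick ascending limb, 12 of 13 genes were detected with a median of 10.03. After Umod came the tight junction gene Cldn10 (13.26, 13.10 and 13.28), the sodium-potassium-chloride cotransporter Slc12a1 (12.96, 13.23 and 13.26) and Egf (11.71, 11.80 and 11.60). For the distal convoluted and connecting tubule, 10 of 13 were detected with a median of 10.35. Slc12a3, the thiazide-sensitive cotransporter, had 12.49, 12.46 and 12.77. The tissue kallikrein gene Klk1 had 12.52, 12.23 and 12.50, and the kinase gene Wnk4 had 11.32, 11.34 and 11.37. The 3 that did not pass the rule act in calcium handling. So does the sodium-calcium exchanger gene Slc8a1 of the same list, which was detected with 9.81, 9.69 and 9.74. Calb1, the calbindin of this segment, was detected on none, with scanner signals of 141, 103 and 114. The calcium channel gene Trpv5 was detected on 2 arrays by one probe and on none by the other, and S100g, a smaller calbindin, on 1 array.

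Collecting duct lists had lower medians. Of the principal cell list, 9 of 10 genes were detected with a median of 9.90. Hsd11b2, which inactivates glucocorticoids in aldosterone-sensitive cells, had 10.36, 11.09 and 10.93. The vasopressin-regulated water channel Aqp2 had 10.51, 10.80 and 10.96, and Aqp3, its basolateral partner, had 9.78, 8.96 and 9.48. Control 1 was the lowest array for Hsd11b2 and Aqp2 and the highest for Aqp3. A second Aqp2 probe had 8.14, 8.03 and 8.26, with control 2 lowest. Of the intercalated cell list, 8 of 12 were detected with a median of 7.69. The anion exchangers Slc4a1 (10.47, 10.82 and 10.63) and Slc26a4 (10.05, 10.37 and 9.96) led it. Atp6v1b1, a proton pump subunit of these cells, was near the lower end, with 6.83, 5.48 and 5.36.

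Glomerular, vascular and interstitial lists had medians between 6.66 and 8.73, on either side of the 8.03 over all detected genes, with a few brighter members. Of the podocyte list, 7 of 8 genes with a probe were detected with a median of 7.88. Its brightest members were Cdkn1c, an inhibitor of cell division (10.54, 10.77 and 10.78), and Synpo, an actin-binding protein of foot processes (10.45, 10.63 and 10.61). The nephrin gene Nphs1 had 6.15, 6.73 and 6.46. Of the endothelial list, 14 of 15 were detected with a median of 8.24, among them Plvap at 11.13, 11.30 and 11.46, a protein of fenestral diaphragms. The growth factor receptor gene Kdr was the exception, with no array detected by one probe and 1 array by the other. Of the renin cell, mesangium and smooth muscle list, 8 of 10 were detected with a median of 6.66. Acta2, the smooth muscle actin gene, stood apart at 11.30, 11.43 and 11.38. Of the matrix list, 10 of 13 were detected, led by the basement membrane collagen gene Col4a1 at 11.27, 11.47 and 11.23.

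**Figure D2:**
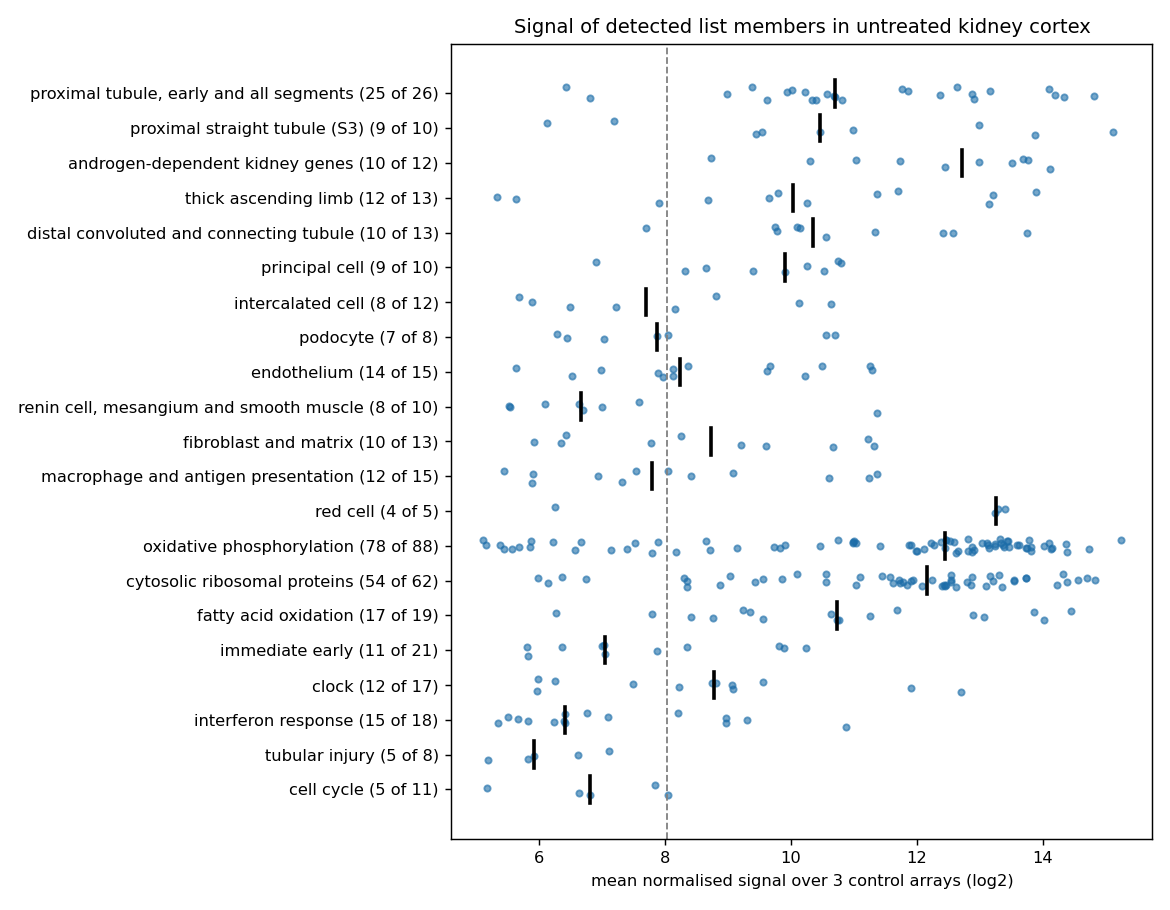
Mean normalised log2 signal over the 3 control arrays (x axis) of each detected gene, 1 point per gene, for 21 gene lists down the page, with the number detected of those with a named probe in brackets. Black bars mark list medians and the dashed line the median of 8.03 over all detected genes. The red cell, oxidative phosphorylation, ribosomal and androgen-dependent lists have medians above 12, and the tubular injury list has a median of 5.91.

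Immune and foreign-tissue lists gave a check on what else the samples held. Of 15 macrophage and antigen presentation genes, 12 were detected. They were led by the class II genes Cd74 at 11.45, 11.30 and 11.37 and H2-Ab1 at 11.35, 11.16 and 11.22, and the list median was 7.79. None of 7 lymphocyte genes and none of 9 adrenal genes was detected on all 3 arrays. Of the lymphocyte genes, Cd3g, Cd79b and Nkg7 were detected on 2 arrays by a probe, Cd3d, Cd3e and Ms4a1 on 1, and Jchain on none. Of the adrenal genes, Cyp11b1 was detected on 1 array and the others on none. Of 12 adipocyte genes, 3 were detected, with Lpl, a lipase also made outside fat, at 13.59, 13.97 and 13.77. The adiponectin gene Adipoq was detected on controls 2 and 3, Cidea on the same 2 arrays, and the brown fat gene Ucp1 on 1 array, while Fabp4 and Plin1 were detected on none. Scanner signals were 145, 138 and 150 for Adipoq, 134, 127 and 206 for Cidea, and 144, 106 and 164 for Ucp1. Cox8b, a cytochrome oxidase subunit gene of brown fat and muscle, had scanner signals of 122, 157 and 243. For each of these 4 genes control 3 had the highest scanner signal. These signals are not normalised between arrays, whose medians were 142, 111 and 129. The detection p of Adipoq was lowest on control 2, at 0.143, 0.0011 and 0.0118. Cox8b was taken from the oxidative phosphorylation list. Of the other adipocyte genes detected on any array, Lep was highest on control 1, with scanner signals of 150, 118 and 144. On the normalised scale Lpl and Cox7a1 were highest on control 2, and Car3 on control 3. Of 9 liver genes, 6 were detected with a median of 7.82, among them the transthyretin gene Ttr at 12.03, 11.71 and 11.99 and the antitrypsin gene Serpina1b at 11.47, 11.61 and 11.88. The albumin gene Alb was detected on no array. Of 6 urothelial genes, 2 were detected at the low end, Upk2 with 6.32, 6.49 and 6.59 and Upk1a with 5.39, 5.60 and 5.68. The part of these other cell types in the values of other genes was not tested.

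Mitochondrial and ribosomal genes were frequent at the bright end. Of 88 oxidative phosphorylation genes, assembly factors included, 78 were detected. Their median was 12.45, 15 of them were among the 100 brightest genes, and the median range between arrays was 0.19, close to the 0.18 of the brightest decile of all detected genes. Uqcr10, a subunit of complex III, had 14.34, 14.30 and 14.48. Ndufs1 and Sdha, core subunits of complexes I and II, were not detected on all 3 arrays, and Ndufb4 and Ndufb2 averaged 5.67 and 5.56. Members of this list thus lay at both ends of the scale. Of 62 cytosolic ribosomal genes, 54 were detected with a median of 12.17, 10 of them among the 100 brightest, and the median range was 0.14. Ribosomal genes have many processed pseudogenes, so their probes may share signal with near-identical copies.

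Other metabolic lists were close to complete. Of 19 fatty acid oxidation genes, 17 were detected with a median of 10.73. The electron transfer flavoprotein genes Etfa and Etfb, which pass electrons from acyl-CoA dehydrogenases to the respiratory chain, averaged 14.02 and 13.87. All 11 glycolysis genes with a probe were detected with a median of 10.44, led by Tpi1 at 13.48, 13.81 and 13.68. Of 7 gluconeogenesis genes, 6 were detected with a median of 9.42. Fbp1, fructose bisphosphatase, had 12.72, 12.78 and 12.80, and the glucose-6-phosphatase gene G6pc had 12.86, 12.37 and 12.66. Pck1 and Slc37a4 were the dimmest of the detected ones, with averages of 6.62 and 6.10. All 16 antioxidant genes with a probe were detected with a median of 11.88. After Gpx1 and Gpx3, Gpx4, which reduces lipid peroxides, was the next in that list with 14.27, 14.01 and 14.30. Of 15 amino acid and creatine genes, 12 were detected, led by Ass1, the argininosuccinate synthase of renal arginine synthesis, at 14.09, 14.09 and 14.17.

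Of the renin-angiotensin genes, 6 of 9 with a probe were detected with a median of 9.08. Atp6ap2, the prorenin receptor, had 11.82, 11.73 and 11.87. The angiotensin receptor gene Agtr1a had 9.99, 10.02 and 9.83. Ace, the enzyme that captopril blocks, had 10.09, 9.44 and 9.64, and angiotensinogen, Agt, had 7.81, 7.11 and 7.47. Control 1 was the highest and control 2 the lowest array for these probes of Ace and Agt. Both other detected Ace probes had control 1 lowest, with 6.05, 6.62 and 6.75 on one and 6.12, 6.69 and 6.57 on the other. No probe of the annotation carried the symbol Ren1.

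Lists of acute responses varied in how many members were detected. The share was 86.7% of 15 heat shock and unfolded protein response genes, 83.3% of 18 interferon response genes and 81.8% of 11 fasting and glucocorticoid genes. Of 21 immediate early genes, 11 were detected, or 52.4%, with a median of 7.04, against 45.2% of all named genes. Fos was detected on 1 array. Ier3, at 10.22, 10.19 and 10.33, and the phosphatase gene Dusp1, at 9.93, 10.05 and 9.68, were the brightest of them. Klf6, a zinc finger transcription factor, had 8.25, 6.54 and 6.31, so control 1 stood alone. Of 17 clock genes, 12 were detected. Dbp, an output transcription factor of the clock, had 12.72, 12.68 and 12.73, and the ubiquitin protease gene Usp2 had 11.84, 11.93 and 11.97. A second Usp2 probe had 7.24, 7.98 and 7.77. The period genes Per1, at 7.36, 7.28 and 7.85, and Per3, at 5.94, 6.44 and 6.39, also act in the clock. The range in this list thus ran from 0.05 for Dbp to 0.57 for Per1. Of 8 tubular injury genes, 5 were detected at a median of 5.91, with the lipocalin gene Lcn2 at 5.92, 6.01 and 5.81. The kidney injury molecule gene Havcr1 was detected on 2 arrays. Of 11 cell cycle genes, 5 were detected, or 45.5%, close to the 45.2% over all named genes, with a median of 6.81.

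The 3 mice were alike over most genes. The median absolute difference between 2 arrays was 0.190 for controls 1 and 2, 0.164 for controls 1 and 3, and 0.173 for controls 2 and 3, with a mean of 0.175 ± 0.013 (SD over the 3 pairs). Between 88.8% and 91.6% of genes differed by less than 0.5 in a pair. Across genes, the Pearson correlation of a pair was 0.988 to 0.990. Between 16554 and 17110 of 45281 probes were detected per array, and medians of the scanner signal lay between 111 and 142.

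The spread was wider for dimmer genes. The median range over the 3 arrays was 0.18 in the brightest decile of the genes, 0.27 in the fifth, 0.47 in the ninth and 0.43 in the dimmest. A range of at least 1 was seen for 161 genes, of which 27 were among the brighter 4309 genes, hereafter the bright genes, whose lowest mean level was 8.04. Of the genes often used for normalisation, Gapdh had 13.32, 13.26 and 13.26 and the cyclophilin gene Ppia had 14.16, 14.16 and 14.27. Actb, the cytoplasmic actin gene, had 13.10, 12.50 and 12.53, and Hprt, a purine salvage enzyme gene, had 11.61, 10.99 and 11.62. Control 1 stood alone for this Actb probe and control 2 for this Hprt probe. Other probes were mixed. The next Actb probe had 12.48, 12.46 and 12.60, with control 3 highest. The dimmer Actb probes had control 1 highest, with 10.62, 10.09 and 9.99, with 10.14, 9.76 and 10.10, and with 9.84, 9.25 and 9.79. The second Hprt probe had 5.88, 5.60 and 5.32.

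**Figure D3:**
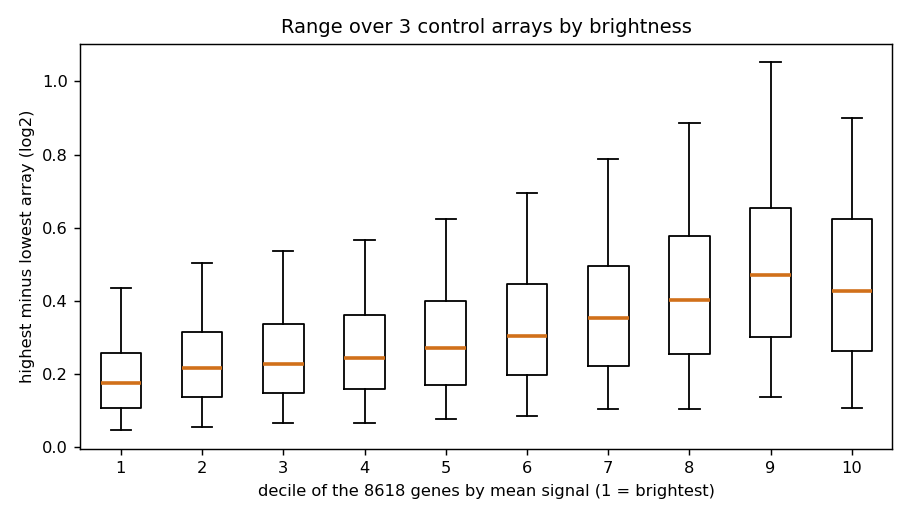
Range between the highest and lowest control array (y axis, log2) of the 8618 genes in deciles of mean signal, the brightest at the left. Lines mark medians, boxes the middle 50% and whiskers the 5th to 95th percentiles. Medians run from 0.18 in the brightest decile to 0.47 in the ninth.

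Regulators of signalling and transcription were among the 20 bright genes with the largest range. These genes were chosen for that range, which is therefore only described. Irs2, a docking protein of the insulin receptor, had 8.80, 8.98 and 6.66, and control 3 stood alone at the low end. Cish, an inhibitor of cytokine and growth hormone signalling, had 9.71, 11.25 and 9.18, and control 2 stood alone at the high end. Bcl6, a transcriptional repressor, had 9.85, 8.97 and 10.71, and Gadd45a, a growth arrest gene, had 9.64, 8.91 and 10.46. In both of them control 3 was highest and control 2 lowest. Irs2 and Cish had the reverse order, with control 2 highest and control 3 lowest. Whether these 4 genes vary together was not tested.

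In most of the others control 1 was highest. Luc7l3, a splicing factor gene, had 10.90, 9.55 and 8.81. Tns1, the focal adhesion gene tensin 1, had 11.22, 9.56 and 9.50. Slc4a4, the basolateral bicarbonate cotransporter of the proximal tubule, had 12.57, 11.41 and 11.61. The rest were Pcdh17, Eif4ebp2, Retreg1, Erich5, Aqp4, Ammecr1l, Gkap1, Pdap1, Hbb-bt, Hba-a1, Irf2bpl, Polr3e and Afdn, with ranges between 1.06 and 1.60. Of the 27 genes with a range of at least 1, control 1 was the highest array in 20 and the array farthest from the other 2 in 19. Over all 4309 bright genes control 1 was highest in 1327, against 1543 for control 2 and 1439 for control 3. It was farthest in 1499, against 1586 for control 2 and 1224 for control 3. Without control 1, 5 bright genes had a range of at least 1 between the other arrays, against 22 without control 2 and 15 without control 3. The part of control 1 in these genes beyond those values was not tested.

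**Figure D4:**
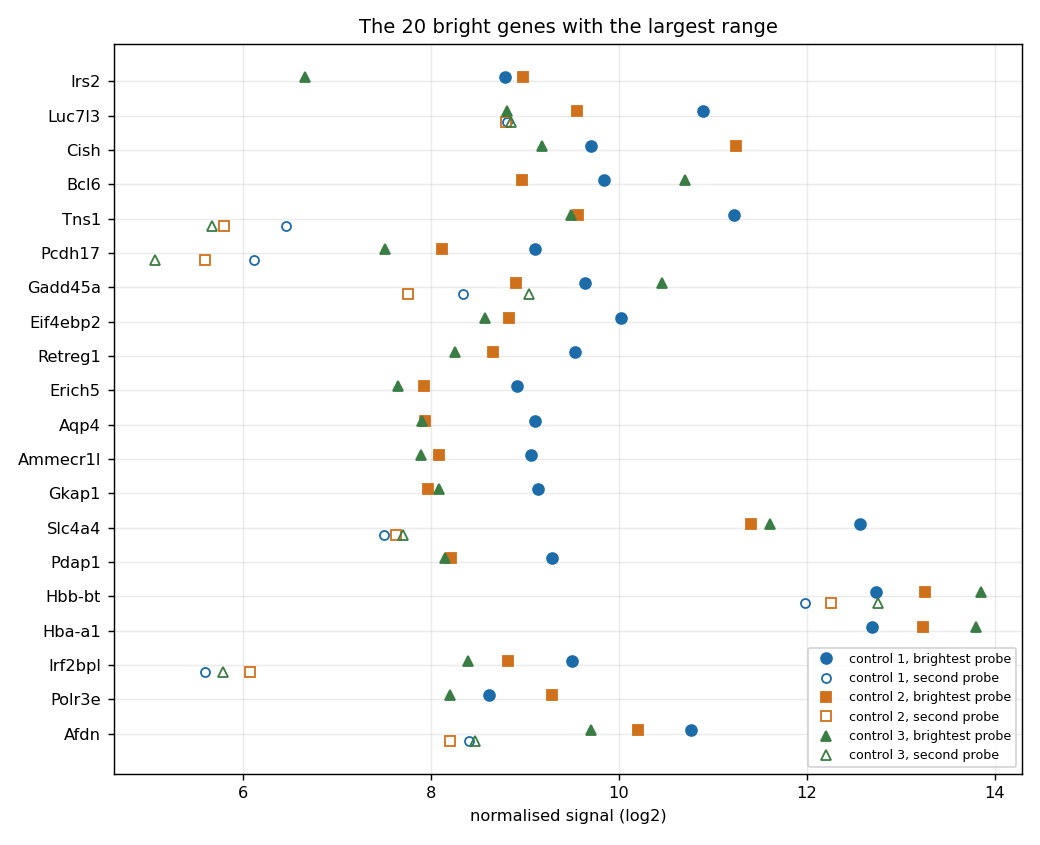
Normalised log2 signal (x axis) of the 20 bright genes with the largest range over the control arrays, largest at the top. Filled symbols are the brightest probe and open symbols the second detected probe, where a gene has one, with 1 symbol shape per array. Irs2 at the top has controls 1 and 2 near 9 and control 3 at 6.66, and the open symbols of Luc7l3 lie together near 8.8.

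Other probes of the same genes, which the choice did not use, gave mixed pictures. Of the 20 genes, 8 had a second detected probe, and in 4 of them it ordered the arrays as the first did. Gadd45a was one of these, with 8.35, 7.76 and 9.04 on its second probe. Tns1 had 6.46, 5.80 and 5.67 on its second probe, a range of 0.78 in the same order. Luc7l3 had 8.82, 8.81 and 8.86 on its second probe, so the range of 2.08 was not seen there. Slc4a4 had 7.50, 7.63 and 7.70, where control 1 was the lowest and not the highest array. Among the 27 genes with a range of at least 1, 7 of 13 with a second probe, or 53.8%, kept the order of the arrays, against 23.3% of 1849 bright genes. The deviations of the 2 probes from their means correlated with a Pearson coefficient of 0.64 for the set of 27 and 0.19 over all bright genes, as a description across genes that share arrays. Both probes are read on the same RNA and array, so they do not separate mouse from array.

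The captopril arrays, which also did not enter the choice, gave the spread of the same genes in other mice. The SD over the 3 captopril arrays had a median of 0.342 over the 20 genes and of 0.125 over all bright genes, and 18 of the 20 lay above 0.125. On the control arrays in the same normalisation of all 6 arrays, the 20 genes chosen for their range had a median SD of 0.654. Over all 4309 bright genes, 19 had a range of at least 1 among the captopril arrays. Of the 20 chosen genes, 4 did. These were Bcl6 with 11.33, 8.07 and 10.81, Cish with 8.95, 10.07 and 8.56, Irs2 with 7.17, 8.43 and 8.07, and Gadd45a with 10.42, 9.28 and 9.88. They are the 4 genes described first above, which were put together there with these values known. For Retreg1 the captopril range was 0.18, against 1.27 among the control arrays normalised on their own.

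Haemoglobin transcripts varied together. Hba-a1 had 12.70, 13.24 and 13.81, and Hbb-bt had 12.74, 13.26 and 13.86. All 11 detected probes of Hba-a1, Hbb-bt, Hbb-bs and the erythroid haem synthesis gene Alas2 were highest on control 3 and lowest on control 1, with ranges of 0.78 to 1.53. Probes of near-identical globin genes can share signal, which was not tested. Alas2 had 5.76, 6.23 and 6.76. Among the captopril arrays, all 11 probes were lowest on captopril 1. The blood content of the samples was not measured.

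**Figure D5:**
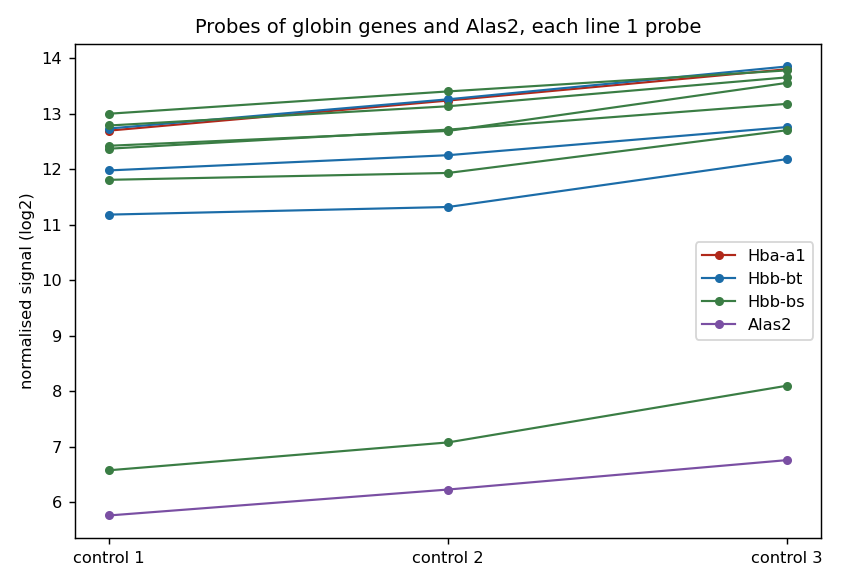
Normalised log2 signal (y axis) on the 3 control arrays (x axis) of 11 probes of Hba-a1, Hbb-bt, Hbb-bs and Alas2, where a line joins the values of 1 probe. Each probe is lowest on control 1 and highest on control 3, from the dimmest, Alas2, at 5.76, 6.23 and 6.76 upward.

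The most even bright genes were Gpx3, Heatr1, Wbp1l, Zfand2a, Aqp11, Dab2, Cutal, Tnrc6c, Mapkap1 and Bcl7a, each with a range that rounds to 0.01 or 0.00. Quantile normalisation gives genes of equal rank the same value, and under median scaling none of the 10 was among the 100 most even genes and their median range was 0.19. Among the captopril arrays their median SD was 0.127, against 0.125 over all bright genes. Mapkap1 was the most even of them there, with a captopril SD of 0.019, and Tnrc6c the least, with 0.241.

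The ranking itself was close to that in the captopril mice, with no comparison of levels made. Of the 8618 genes, 8305, or 96.4%, were detected on all 3 captopril arrays and 22 on none. Of the 25 brightest control genes, 23 were among the 25 brightest in the captopril mice, and of the 100 brightest, 97. The detection rule kept 8717 genes on the captopril arrays and 8310 on all 6 arrays.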

How the data were processed

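Total RNA of kidney cortex from 3 captopril and 3 control mice was measured on Illumina mouse bead arrays, 1 mouse per array, and the control arrays are described here. The deposited scanner table gives, for each of 45281 probes, a linear signal intensity averaged over its beads, per the file headers, with no normalization between arrays. Beside each deposited signal stands a detection p-value, per the file headers. The authors also deposited processed values that lie on about a log2 scale. The tool lumi is named per the submitters' processing notes, and neither transform nor normalization is given in the sources used here. Each processed column ranked the probes as its own array's intensity did, so its direction is the same. All columns had a median of 7.94, so values were not centred per gene, and the exact scale remains unknown. They served as an alternative.

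Intensities of the control arrays were background-corrected and quantile-normalised with neqc in limma 3.58.1 (R 4.3.3), which infers the negative controls from the detection p-values and adds an offset of 16. Of the probes, 34885 had 1 symbol in the platform annotation, 18 had several and 10396 are unnamed here, including those 18. Of the gene identifiers, 34807 were found in the RefSeq gene table and 0 symbols changed. Summaries were made in Python 3.11.15 with pandas 2.3.3, and probe choice and spread were checked on simulated data. Where captopril arrays appear, all 6 were normalised together. Captopril was not compared with control.

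Precision is limited by the number of control arrays, 3. The rule for the detected genes and the 41 gene lists, with 626 genes of which 449 were detected, were chosen with earlier results of these data known. Genes named are the 25 brightest, the 20 with the largest and the 10 with the smallest range among the brighter 4309 genes, the 5 markers, and of each list up to 4 brightest and 2 most variable members. Undetected list genes, the genes with TATAAA in bright promoters and those at the detection threshold were named after their values were seen. Alternatives were normalization on all 6 arrays, no background correction, median scaling, the authors' values, other detection filters, other probes per gene and leaving out each array.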

Additional observations from a re-analysis of the deposited data

Results flagged for a closer look

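Probes without a single gene symbol in the annotation took no part in the ranking, yet 1769 of them were detected on all 3 control arrays. Of these, 41 were at or above the level of the 100th gene, 13.52, and 8 were above that of the 25th, 14.39. The brightest, ILMN_2758581, had 14.95, 15.09 and 15.10. The top of the ranking therefore covers named probes only.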

How the results depend on the processing

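No paired analysis was possible because only the control arrays are described, with no groups compared and no test. The number of genes was 19057 with no detection filter, 2747 with second brightest probes, and 8879 to 9048 when a control array was left out. The median difference between 2 arrays, 0.175, was 0.113 without background correction, 0.194 under median scaling, 0.0754 in the authors' values, 0.200 with second brightest probes, and 0.166 to 0.190 when an array was left out. The share of signal in the 100 brightest genes, 22.1%, was 19.8% without background correction, 19.2% in the authors' values, 21.8% with no detection filter, 24.8% with the mean of a gene's probes, 46.8% among the genes with second brightest probes, 6.95% for the 20 brightest, and 22.0% to 22.2% when an array was left out. The count of 27 bright genes with a range of at least 1 was 12 without background correction, 10 in the authors' values, 346 with no detection filter, 311 at a range of at least 0.5, and 5 to 22 when an array was left out, lowest without control 1. The filter and probe settings change the genes that enter, and the range of 0.5 and the 20 brightest genes change what is counted. A range over 2 arrays tends to be smaller than one over 3. The cause of the other shifts was not tested. All 25 brightest genes kept their place in the top 25 under the other normalizations and filters, while 23 to 24 did without a control array, 21 with the mean of probes and 7 with second probes. The setting with second probes ranked only the 2747 genes that have one, so a gene without one, such as Gpx1, could not keep its place. The range of Irs2 was 0.19 without control 3, that of Tns1 0.07 without control 1, that of Cish 0.53 without control 2, and that of Luc7l3 0.66 with the mean of its probes.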
